A study of Mus musculus with 23 samples.

Results

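GABA-A receptor subunit genes of the mouse brain were followed across a mutation of Grin2b and a foot-shock, in a named group of 7 genes: Gabra2, Gabra3, Gabra4 and Gabra5 (alpha subunits), Gabrb1 and Gabrb2 (beta subunits) and Gabrd (the delta subunit). They are 7 of the 18578 genes of the deposited table and were found by symbol. All 7 were among the 17118 genes with a mean of at least 10 normalized counts, which were tested. GABA-A receptors are pentameric chloride channels gated by the transmitter GABA, and they carry most fast inhibition in the brain. The usual receptor joins alpha and beta subunits, whose interface binds GABA, with a gamma or delta subunit. Gamma subunits go with receptors at synapses, whereas the delta subunit and the alpha5 subunit are known from receptors outside them that respond to ambient GABA.

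RNA of brain from male C57BL/6J mice was sequenced in 23 libraries. The groups were 6 libraries of mice heterozygous for the C456Y allele of Grin2b after foot-shock (HT shock), 6 of heterozygous mice without it (HT control), 5 of wild-type mice after foot-shock (WT shock) and 6 of wild-type mice without it (WT control). The product of Grin2b, GluN2B, is a subunit of NMDA-type glutamate receptors, which admit calcium at excitatory synapses, and foot-shock is a brief electrical stimulus to the paws used as an aversive event. The sample labels give postnatal day 17 and the series text adult mice, so the age is unresolved. The labels name no brain region, do not say how long after the shock the tissue was taken, and do not say whether libraries are separate animals. The p-values thus reflect how much the libraries of a group differ, which may be technical.

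Each library summed to 30.98 to 32.57 M normalized counts (M, mega), a total set by the normalization, and sequencing depth is unknown. All 8 pan-neuronal markers were above 0 in every library. HT control replicate 6 stood apart. On the first principal component (12.9% of the variance) it lay at 31.3. The HT shock libraries reached from 11.4 to 26, the remaining HT control libraries from -12.7 to 5.17 and the 11 WT libraries from -18.5 to 1.63. Grin2b differed by -0.26 ± 0.08 on the log2 scale (SE) in HT shock against WT shock, with a limma adjusted p of 0.0507. The level of Grin2b RNA does not check an allele that changes the protein.

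The subunit genes lie in clusters. Sequences at the starts of Gabrb1, Gabrb2 and Gabra4 are shown here because these genes varied together across the libraries. For Gabra4 much of that came from HT control replicate 6. Each of these relations was weaker after a correction for transcript length and GC content, described further on. Shared regulation was not tested. On chromosome 5 (GRCm38, GENCODE annotation) Gabra2 spans 70957597 to 71095849 and Gabra4 71569749 to 71658308, both on the minus strand, and Gabrb1 spans 71658113 to 72149037 on the plus strand. Gabra4 and Gabrb1 are transcribed in opposite directions and overlap at their 5′ ends, by 196 bp in the GENCODE annotation with 46 bp of it exonic, and by 388 bp between RefSeq's start of Gabra4 and its upstream start of Gabrb1. Gabrb2 lies on chromosome 11, 42419757 to 42629028, plus strand. The windows run from 250 bases before to 50 bases after a RefSeq start (GRCm38.p6), 5′ to 3′ on the gene's strand, and the capitals mark matches on either strand to the TATA box (TATAAA), the GC box (GGGCGG), the half-site of the cyclic AMP response element (TGACG) or the core bound by EGR-family factors (GCGNGGGCG).
Gabrb1 (chr5:71657671-71657970, plus strand): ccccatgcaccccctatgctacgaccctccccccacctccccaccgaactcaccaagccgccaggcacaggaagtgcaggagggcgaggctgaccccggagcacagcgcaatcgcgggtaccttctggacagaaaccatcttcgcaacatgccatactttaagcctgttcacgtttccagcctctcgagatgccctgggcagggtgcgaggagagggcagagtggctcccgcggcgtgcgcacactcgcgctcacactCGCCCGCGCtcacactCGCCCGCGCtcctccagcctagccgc
Gabrb2 (chr11:42420190-42420489, plus strand): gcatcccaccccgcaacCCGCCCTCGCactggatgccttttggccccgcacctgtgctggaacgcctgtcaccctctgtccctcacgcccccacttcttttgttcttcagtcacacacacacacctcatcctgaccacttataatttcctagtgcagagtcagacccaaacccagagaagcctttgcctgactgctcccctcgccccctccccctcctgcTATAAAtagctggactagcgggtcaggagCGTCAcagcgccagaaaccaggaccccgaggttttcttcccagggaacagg
Gabra4 (chr5:71658259-71658558, minus strand): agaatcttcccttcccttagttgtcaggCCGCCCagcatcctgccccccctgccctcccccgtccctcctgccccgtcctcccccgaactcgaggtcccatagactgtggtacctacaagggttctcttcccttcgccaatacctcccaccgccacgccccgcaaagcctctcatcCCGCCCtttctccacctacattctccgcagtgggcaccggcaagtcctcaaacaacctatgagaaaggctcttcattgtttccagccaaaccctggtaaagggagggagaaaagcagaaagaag
The printed windows of Gabrb1 and Gabrb2 belong to their upstream starts. RefSeq gives further starts for Gabrb1 (window chr5:71699682-71699981) and Gabrb2 (windows chr11:42420524-42420823 and chr11:42420951-42421250). Those windows hold none of the 4 motifs and are not printed. The printed Gabrb1 window holds 2 reverse matches to GCGNGGGCG, starting at bases 9 and 25 of the transcript. The Gabrb2 window has TATAAA 30 to 25 bases before the start, a TGACG match on the reverse strand that begins at the last base before the start, and, farther upstream, a GGGCGG match that overlaps a GCGNGGGCG match. The Gabra4 window has 2 reverse GGGCGG matches. Of all 32851 windows of this length in the RefSeq table, 13.6% hold TATAAA, 35.7% GGGCGG, 20.8% TGACG and 5.6% GCGNGGGCG. None of the 4 motifs is found in all 3 printed windows. A match describes letters only. Windows were matched for 6 of the 7 genes.

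The other subunit genes sit elsewhere. Gabra3 is on chromosome X (72432681 to 72656848, minus strand), between Gabre and Gabrq, and Gabra5 on chromosome 7 (57407672 to 57510059, minus strand), beside Gabrg3. Gabrd is on chromosome 4 (155384980 to 155398112, minus strand), with no other subunit gene near it. Gabrb2 shares its region of chromosome 11 with Gabra6. Coding sequences were 54.3% to 73.1% identical between pairs of the 7, with Gabra3 and Gabra5 at 73.1% and Gabrb1 and Gabrb2 at 72.7%. Few stretches of 31 bases were shared with another receptor subunit gene: 4 in Gabra2, 2 in Gabra3 and 0 in the other members. Gabra5 overlaps the exons of the antisense gene Gm9962 by 148 bp. The library kit keeps strand, per the labels, and the sources used here do not state whether the counting used it.

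Levels between genes were compared as normalized counts per kb of exonic length, as means over the 23 libraries. Gabrd stood at 917.4 and Gabra3 at 913.9 per kb, followed by Gabra5 at 639.3, Gabrb2 at 501.2, Gabra4 at 455.0, Gabrb1 at 263.5 and Gabra2 at 232.2 per kb. Gabrd exceeded Gabra3 in 9 of 23 libraries, so the order of those neighbours was not set. Gabra5 lay above Gabrb2 in 20 of 23 libraries and Gabrb2 above Gabra4 in 16. The other neighbours in the order, Gabra3 above Gabra5, Gabra4 above Gabrb1 and Gabrb1 above Gabra2, held in 23 of 23 libraries. The order depends on the length used: per kb of the longest coding transcript, Gabrb2 (799.1) lay above Gabra5 (711.8), and Gabra2 (303.2) above Gabrb1 (265.5).

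**Figure D1:**
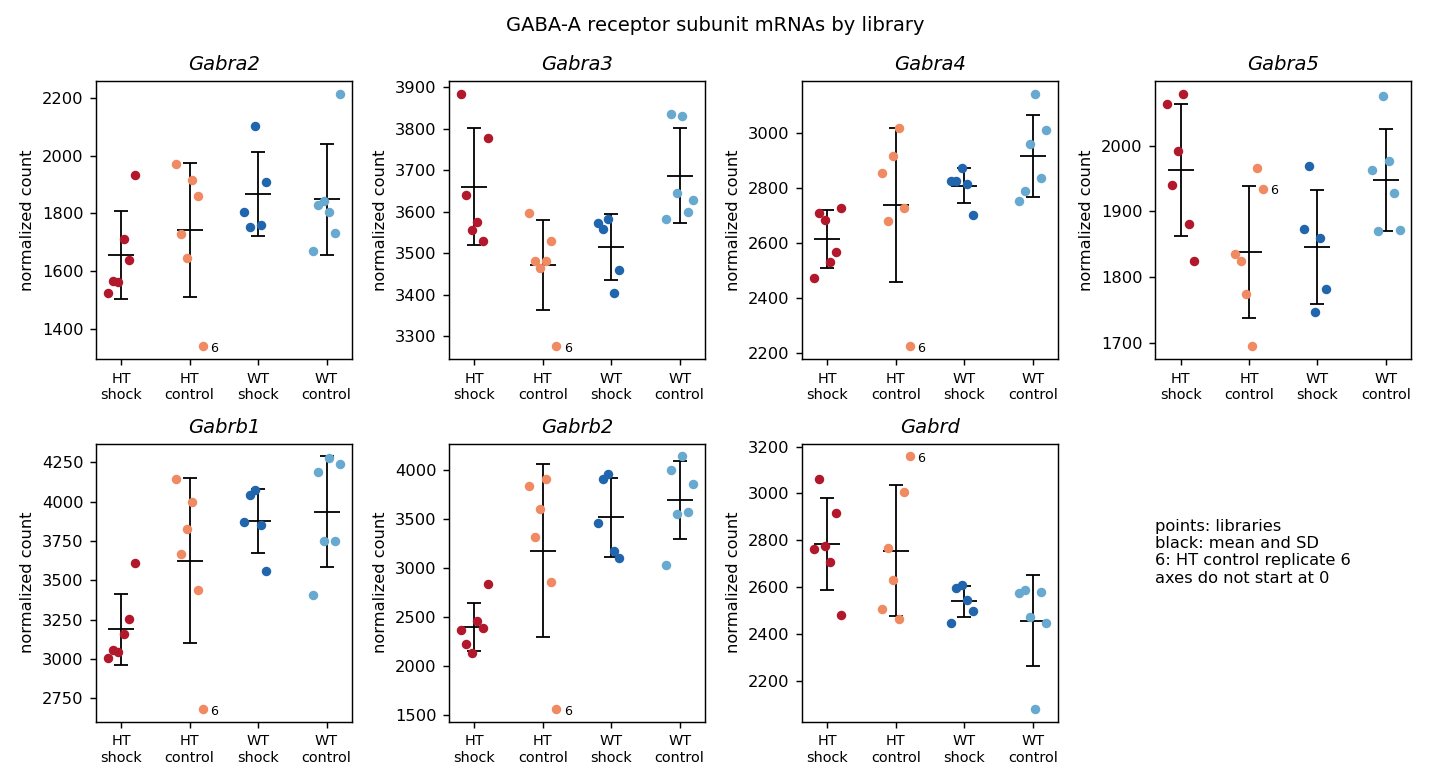
Normalized counts of the 7 subunit genes in each library (points), with the mean and SD of each group in black, for HT shock, HT control, WT shock and WT control. The axes do not start at 0. The 6 HT shock libraries lie below all 5 WT shock libraries for Gabrb2, and HT control replicate 6 is the lowest library for Gabra2, Gabra3, Gabra4, Gabrb1 and Gabrb2.

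The comparison of the genotypes after shock was the only 1 of the 5 with calls among the subunit genes: in HT shock both beta subunit genes were below their WT shock levels, and no alpha gene and not Gabrd passed the test. Of the 7 genes 2 were lower and 0 higher at an adjusted p under 0.05 (limma on log2(normalized count + 1), Benjamini-Hochberg over 17118 genes), against 9.28% of all genes called, 5.33% lower and 3.95% higher. At an unadjusted limma p under 0.05 were 4 of the 7 genes, and 4773 of all 17118. The median log2 difference of the 7 genes was -0.10, and that of all genes tested 0.004.

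Gabrb2, a beta subunit found in the most abundant receptor type of the adult brain, had 2134 normalized counts in the lowest HT shock library, a median of 2385 and 2837 in the highest, against 3462, 3912, 3965, 3173 and 3105 in the 5 WT shock libraries. The ranges did not overlap. This was so for 1 of the 7 genes, and for 8.57% of all genes tested (4.82% with HT shock lower). The log2 difference was -0.55 ± 0.17 (SE), or 0.683-fold, with an adjusted p of 0.0476 by limma and a 95% interval of -0.90 to -0.20.

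Gabrb1, the other beta subunit of the group, had 3008 normalized counts in the lowest HT shock library, a median of 3106 and a highest value of 3612. The 5 WT shock libraries had 3868, 4040, 4072, 3851 and 3560. HT shock replicate 6 reached above the lowest WT shock library, and the other 5 HT shock libraries lay below all of them. The log2 difference was -0.28 ± 0.08 (SE), or 0.821-fold, with a limma adjusted p of 0.0338 and a 95% interval of -0.45 to -0.12.

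Both calls lay close to the threshold. With no filter on low values Gabrb2 was not called (limma adjusted p = 0.052), and neither gene was called when a replicate number entered the fit as a block, although the labels do not say that the numbers pair libraries. Leaving out 1 library at a time gave log2 differences of -0.60 to -0.51 for Gabrb2, with limma adjusted p between 0.000639 and 0.108, and the call held in 5 of 23 cases. For Gabrb1 they were -0.32 to -0.27, with adjusted p between 0.00233 and 0.0786, and the call held in 15 of 23. Both calls were lost without any 1 of HT shock replicates 1 to 4 or WT shock replicates 1 to 4. That of Gabrb2 was also lost without HT shock replicate 5, WT shock replicate 5, HT control replicates 2, 3 or 5, or WT control replicates 2 to 6. Neither direction turned in any of these fits.

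The alpha subunit genes differed less after shock. Gabra2, an alpha subunit common in forebrain and known from the axon initial segment, had 1524 to 1932 normalized counts in HT shock with a median of 1601, against 1806, 1752, 2103, 1760 and 1909 in WT shock. Its log2 difference was -0.17 ± 0.08 (SE; limma adjusted p = 0.177). The highest HT shock library, replicate 6, lay above 4 of the 5 WT shock libraries.

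Gabra4, which pairs with the delta subunit in thalamus, striatum and dentate gyrus, had 2472 to 2726 normalized counts in HT shock with a median of 2626, against 2825, 2827, 2874, 2815 and 2703 in WT shock. The ranges met only through WT shock replicate 5. It differed by -0.10 ± 0.06 (log2, SE; limma adjusted p = 0.223).

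Gabra3, an alpha subunit of monoaminergic nuclei and deep cortical layers, was at 3530 to 3884 normalized counts in HT shock with a median of 3607. The WT shock libraries had 3572, 3559, 3581, 3403 and 3460. Its log2 difference was positive, 0.06 ± 0.03 (SE; limma adjusted p = 0.272).

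Gabra5, the alpha subunit of hippocampal extrasynaptic receptors, was at 1825 to 2079 normalized counts in HT shock with a median of 1966, against 1874, 1969, 1747, 1860 and 1783 in WT shock. Its log2 difference was 0.09 ± 0.05 (SE; limma adjusted p = 0.206). The groups overlapped for both Gabra3 and Gabra5.

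Gabrd, which encodes the delta subunit, was at 2481 to 3061 normalized counts in HT shock with a median of 2770. The WT shock libraries had 2446, 2594, 2608, 2546 and 2499. In HT shock 5 of 6 libraries lay above every WT shock library, and replicate 6 lay within their range. The log2 difference was 0.13 ± 0.06 (SE), with a limma adjusted p of 0.178.

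**Figure D2:**
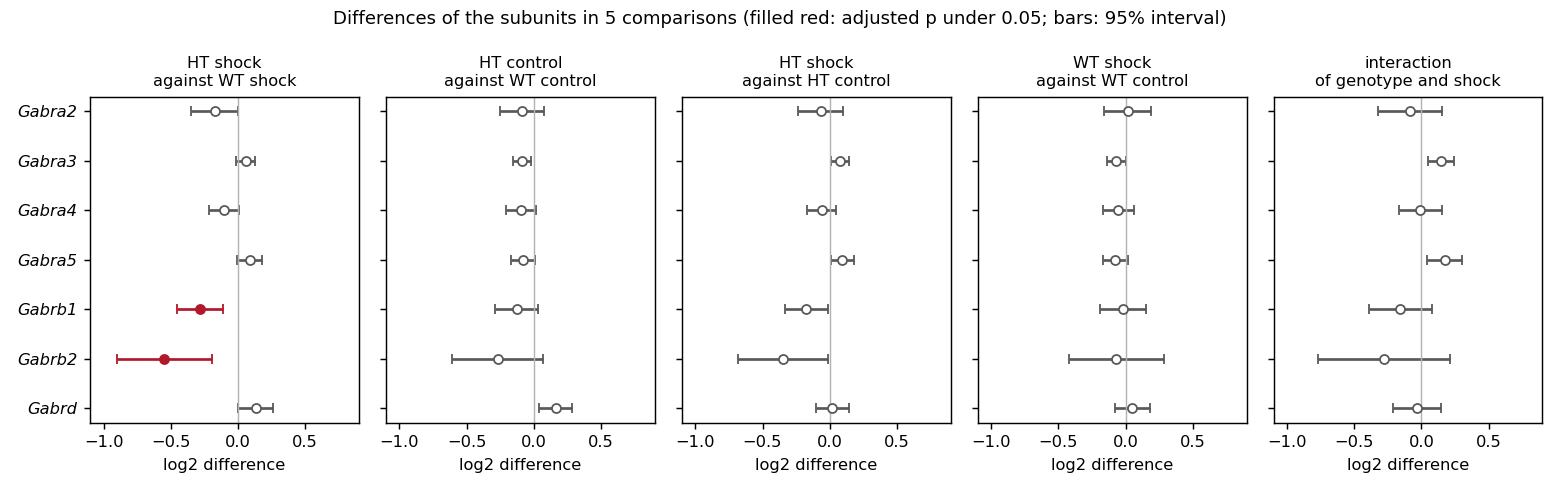
Log2 differences of the 7 subunit genes in the 5 comparisons, with 95% intervals. Filled red points passed an adjusted p of 0.05, which only Gabrb1 (-0.28) and Gabrb2 (-0.55) did, in HT shock against WT shock.

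Without shock no gene passed between the genotypes. In HT control against WT control 0 of 7 subunit genes passed, as did 0% of all 17118 genes, with 1895 genes and 2 of the 7 at an unadjusted p under 0.05. The ranges of the groups overlapped for all 7 genes, and did not for 0.421% of all genes. Gabrb2 had 1563 normalized counts in the lowest HT control library, a median of 3460 and 3908 in the highest, against 3033, 3719 and 4144 in WT control. The lowest value was that of replicate 6, and the other 5 HT control libraries began at 2864. The log2 difference of Gabrb2 was -0.27 ± 0.16 (SE; limma adjusted p = 0.524), and without HT control replicate 6 it was -0.08 ± 0.09 (adjusted p = 0.932). Gabrb1 had 2681, 3745 and 4146 as lowest, median and highest HT control values, against 3404, 3971 and 4278 in WT control, which differed by -0.13 ± 0.08 on the log2 scale (SE; limma adjusted p = 0.526).

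The 2 genes under an unadjusted p of 0.05 there were Gabrd and Gabra3. Gabrd ranged from 2462 to 3158 normalized counts in HT control with a median of 2698, against 2079 to 2587 with a median of 2524 in WT control. Its log2 difference was 0.16 ± 0.06 (SE; limma adjusted p = 0.384), of the same sign as after shock. Gabra3 ranged from 3276 to 3598 in HT control with a median of 3482, against 3582 to 3834 with a median of 3638 in WT control. These ranges met only at their edges, and Gabra3 differed by -0.09 ± 0.03 (log2, SE; limma adjusted p = 0.385). The remaining alpha genes lay within the spread: Gabra2 at -0.09, Gabra4 at -0.10 and Gabra5 at -0.08 on the log2 scale, with limma adjusted p of 0.667, 0.498 and 0.47.

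Within the heterozygous mice the effect of shock turned on 1 library. With all libraries 0 of 7 subunit genes and 0% of all genes passed in HT shock against HT control, with 2352 genes and 4 of the 7 at an unadjusted p under 0.05. The ranges overlapped for all 7 genes, and did not for 0.286% of all genes. The log2 difference of Gabrb2 was -0.35 ± 0.16 (SE; limma adjusted p = 0.355) and that of Gabrb1 -0.17 ± 0.08 (adjusted p = 0.335). HT control replicate 6 had the lowest Gabrb2 value of all libraries. How many of all genes stop overlapping without that library was not counted. Without it the HT shock libraries lay below every remaining HT control library for Gabrb2 (highest 2837 against lowest 2864). That separation follows from dropping the only library that made the ranges meet, so no conclusion is drawn from it. In the fit without HT control replicate 6 Gabrb2 was lower by limma at -0.54 ± 0.09 (SE; adjusted p = 0.00222), Gabrb1 at -0.26 ± 0.06 (adjusted p = 0.00748) and Gabra4 at -0.12 ± 0.04 (adjusted p = 0.0492). That is 3 of 7 lower and 0 higher, when 12.1% of all genes were called, 7.58% lower. With library weights, which gave that library a weight of 0.24, Gabrb2, Gabrb1 and Gabra5 were called there, when 16.3% of all genes were called. HT shock against WT shock also moved: without HT control replicate 6 Gabrb2 and Gabrb1 had limma adjusted p of 0.000639 and 0.00233, at the same differences, when 17.1% of all genes were called.

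Gabra5 was the alpha gene with the highest positive value in this comparison. It had 1825 to 2079 normalized counts in HT shock with a median of 1966, against 1695 to 1966 with a median of 1830 in HT control. It differed by 0.09 ± 0.04 (log2, SE; limma adjusted p = 0.34), and with library weights 0.13 ± 0.04 (adjusted p = 0.0267). Gabra3 stood at 0.08 ± 0.03 (adjusted p = 0.326 by limma), Gabra2 at -0.07 (0.717), Gabra4 at -0.06 (0.614) and Gabrd at 0.02 (0.91) on the same scale.

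In wild-type mice shock made no call among the 7 subunit genes or among all 17118 (0%), with 637 genes and 0 of the 7 at an unadjusted p under 0.05. The 2 beta genes were close to 0: Gabrb1 at -0.02 ± 0.08 and Gabrb2 at -0.07 ± 0.17 on the log2 scale (SE; limma adjusted p = 0.998 each). Gabrb2 had 3462, 3912, 3965, 3173 and 3105 normalized counts in WT shock, within the WT control range of 3033 to 4144. Gabra3 was the 1 gene of the 7 whose groups did not overlap. Its 5 WT shock libraries lay between 3403 and 3581.3, and its 6 WT control libraries between 3581.6 and 3834, so that the gap was less than a count. Ranges did not overlap for 0.374% of all genes tested, 0.21% with WT shock lower, and the log2 difference of Gabra3 was -0.07 ± 0.03 (SE; limma adjusted p = 0.998).

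The difference between the genotypes in their response to shock, tested as an interaction, passed for 0 of the 7 genes and 0% of all genes, with 1101 genes at an unadjusted p under 0.05. Gabra5 and Gabra3 were the 2 of the 7 under that limit. Gabra5 stood at 0.17 ± 0.06 (SE; limma adjusted p = 0.73), from a shock difference of 0.09 in HT and -0.08 in WT. Gabra3 stood at 0.14 ± 0.05 (adjusted p = 0.668 by limma), from 0.08 in HT and -0.07 in WT. Gabrb2 stood at -0.28 ± 0.24 (limma adjusted p = 0.841) and, without HT control replicate 6, at -0.47 ± 0.13 (adjusted p = 0.157). The beta calls after shock are therefore not shown to differ from the genotype difference without shock. The comparisons share libraries, so their values are not independent of each other.

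The share of each subunit in the summed level of the 7 genes, each per kb, describes how the mixture of RNAs differed. Gabrb2 made up 9.9% ± 0.96 in HT shock, 12.7% ± 3.22 in HT control, 14.03% ± 1.15 in WT shock and 14.4% ± 1.3 in WT control (SD, n = 6, 6, 5 and 6). Gabrd made up 25.4% ± 1.79 in HT shock, 24.7% ± 3.49 in HT control, 22.4% ± 0.54 in WT shock and 21.2% ± 1.9 in WT control. The other 5 genes moved by less than 2 percentage points between the group means. No test was made of these shares, which are set by the same values as the differences above. In bulk tissue fewer cells of a type and less RNA per cell cannot be told apart.

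Within the groups the subunit genes did not vary independently. Taking each library's log2 level as a deviation from its group mean over the 23 libraries, 11 of 21 pairs of genes were correlated by both Pearson's r and Spearman's rho after Benjamini-Hochberg adjustment over the 21 pairs (permutation test within groups, two-sided, 100000 resamples), 7 of them positively. Gabrb1 and Gabrb2 had the closest relation, r = 0.95 and rho = 0.90, both with a permutation p of 1e-05, the smallest these resamples give, and an adjusted p of 0.00021. Without the 2 libraries farthest out, HT control replicates 6 and 1, r was 0.91. Gabrb1 and Gabrb2 lie on different chromosomes. The share of all gene pairs that pass was not computed, so the count of 11 is not shown to be particular to the subunit genes. Genes outside the group lay closer still: Akap6 at r = 0.98 with Gabrb1 and Faxc at r = 0.98 with Gabrb2.

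Gabra4 followed both beta genes, at r = 0.83 each and rho of 0.73 with Gabrb1 and 0.63 with Gabrb2 (adjusted permutation p of 0.0034 and 0.0049 for r). Much of that came from HT control replicate 6, since without it r was 0.62 with Gabrb1 and 0.53 with Gabrb2. Gabra2 correlated with Gabrb1 at r = 0.77 and rho = 0.63 (adjusted permutation p = 0.0034 and 0.015), and at 0.59 without that library. Corrected for transcript length and GC content of the genes, as described further on, that pair was at r = 0.16. Gabrd ran the other way, at r = -0.70 with Gabrb1, -0.68 with Gabrb2 and -0.68 with Gabra4 (rho of -0.55, -0.57 and -0.57; adjusted permutation p for r of 0.0034, 0.0034 and 0.0049). Gabra5 was also negative to Gabrb1, r = -0.51 and rho = -0.51 (adjusted permutation p = 0.044 and 0.034), and r was -0.39 without the 2 libraries farthest out.

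**Figure D3:**
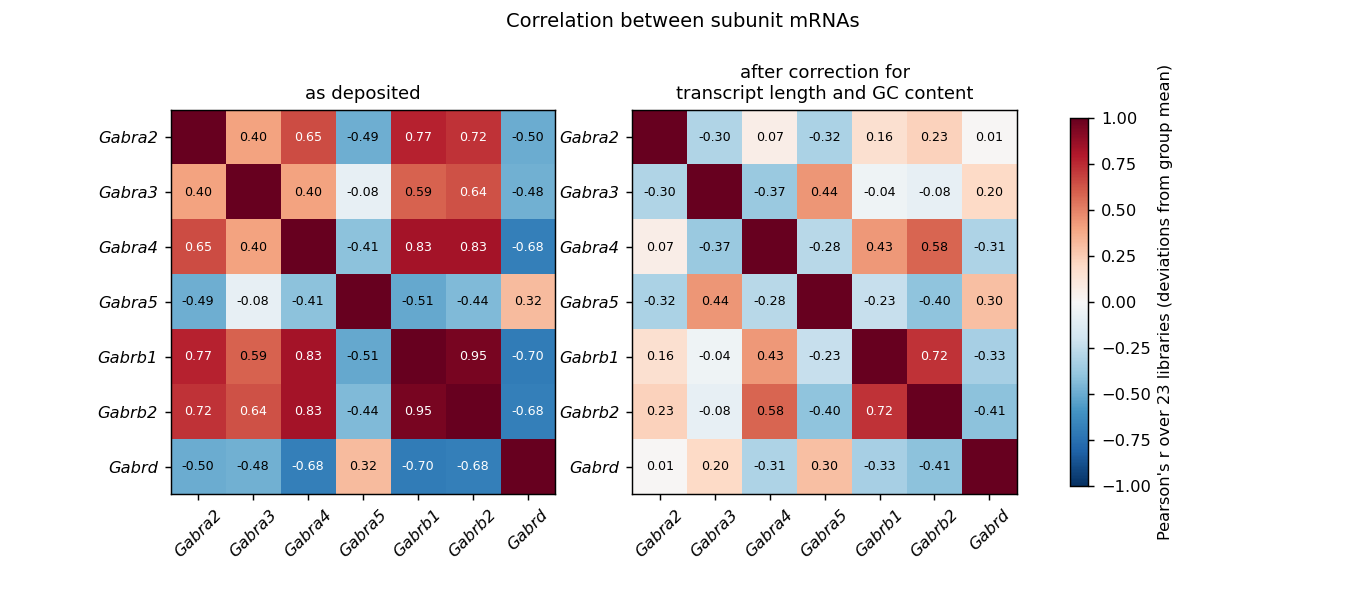
Pearson's r between subunit genes over 23 libraries, from log2 deviations from the group mean, as deposited (left) and after each library was corrected for transcript length and GC content (right). Colours run from -1 (blue) to 1 (red). Gabrb1 and Gabrb2 stand at 0.95 on the left and 0.72 on the right, and most other pairs are nearer 0 on the right.

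A property of the libraries moved with these genes. For each library the slope of log2 level on log2 length of a gene's longest transcript was taken over 17106 genes, relative to the mean of all libraries. It ran from -0.062 to 0.013 in HT shock, from -0.097 to 0.057 in HT control with replicate 6 the lowest, from 0.002 to 0.044 in WT shock and from -0.006 to 0.055 in WT control. In HT shock 5 of 6 libraries lay below all WT libraries, and replicate 6 at 0.013 was the exception. Set against WT shock alone, replicate 6 was also the 1 HT shock library within the WT shock range for Gabrb1, Gabra2 and Gabrd. A negative slope means lower values of long transcripts.

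Within groups Gabrb1 followed the slope at r = 0.96 and rho = 0.90, and Gabrb2 at r = 0.93 and rho = 0.92, each with an adjusted permutation p of 3.5e-05 over 7 genes. Leaving out the 2 libraries farthest from the median slope gave r of 0.91 and 0.88. Gabra4 (r = 0.77, rho = 0.58), Gabra2 (0.76, 0.56) and Gabra3 (0.62, 0.61) were also positive, and Gabra5 (-0.62, -0.60) and Gabrd (-0.75, -0.62) negative, with adjusted permutation p of 0.0041 or less for r and 0.013 or less for rho. Without the 2 farthest libraries these r were 0.56, 0.57, 0.44, -0.69 and -0.65. The slope was computed from the same libraries over genes that include the 7, so long transcripts follow it in part by construction. The share of all genes that follow it as closely was not computed. These p-values thus do not show a relation particular to the subunit genes. The exonic lengths are 13838 bp for Gabrb1, 7640 for Gabra2, 6360 for Gabrb2, 6083 for Gabra4, 3924 for Gabra3, 2974 for Gabra5 and 2875 for Gabrd, so the 2 shortest were the 2 with a negative relation. The slope itself used the longest transcript of each gene, a different measure. By the longest coding transcript Gabrb2 (3989 bp) is shorter than Gabra4 (4108) and Gabra2 (5852), although its r was higher than theirs. Gabra5 (2671) and Gabrd (1921) are the 2 shortest by that length too.

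**Figure D4:**
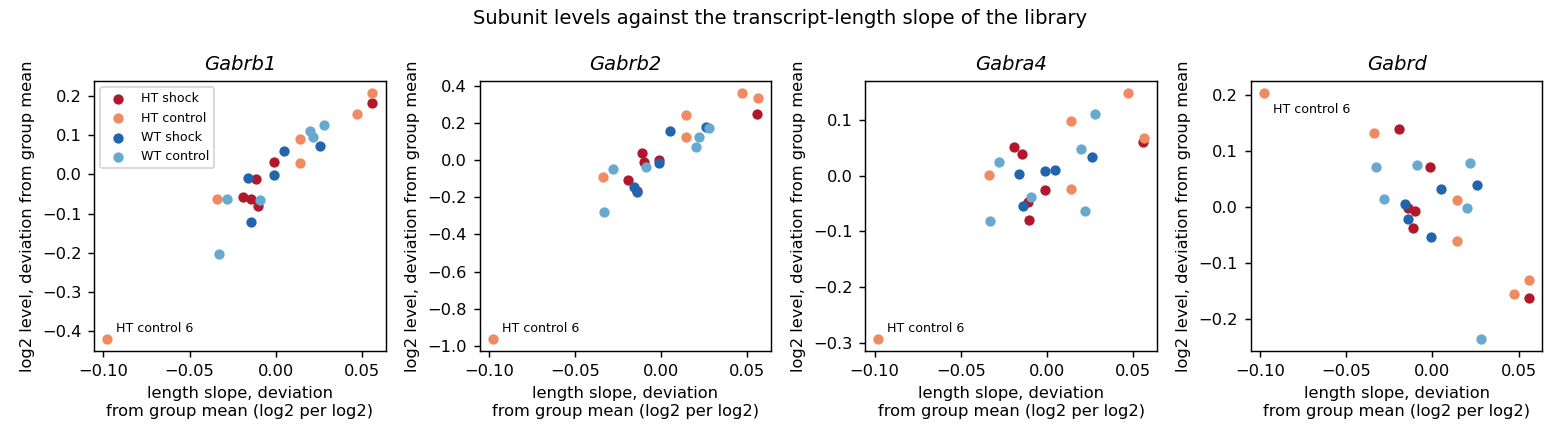
Log2 level of Gabrb1, Gabrb2, Gabra4 and Gabrd in each library against the library's transcript-length slope, both as deviations from the group mean, with 1 point per library coloured by group. Points of Gabrb1 and Gabrb2 lie along a rising line (r = 0.96 and 0.93), with HT control replicate 6 at its lower end, and Gabrd falls (r = -0.75).

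After each library was corrected for transcript length and GC content, a setting chosen after seeing the data, neither beta gene passed in HT shock against WT shock. Gabrb1 then stood at -0.10 ± 0.03 (SE; limma adjusted p = 0.0506), a smaller difference than without the correction, and Gabrb2 at -0.49 ± 0.15 (adjusted p = 0.0609), close to its uncorrected value. Gabra3 was called as higher, at 0.11 ± 0.03 (adjusted p = 0.0302 by limma), when 5.26% of all genes were called, 2.8% as higher. The correlation of Gabrb1 and Gabrb2 was 0.72 after it, that of Gabra4 with Gabrb1 0.43 and with Gabrb2 0.58, and that of Gabra2 with Gabrb1 0.16. The negative ones of Gabrd were -0.33 with Gabrb1, -0.41 with Gabrb2 and -0.31 with Gabra4, and that of Gabra5 with Gabrb1 was -0.23. The cause of the slope was not tested.

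**Figure D5:**
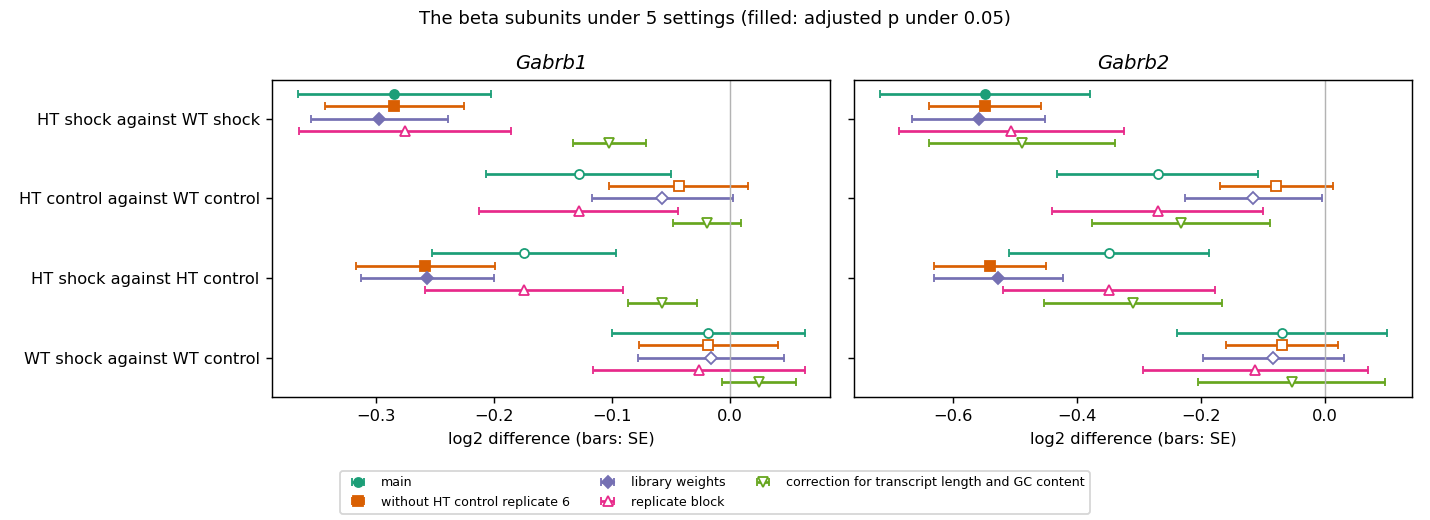
Log2 differences of Gabrb1 (left) and Gabrb2 (right) with SE in 4 comparisons under 5 settings; filled symbols passed an adjusted p of 0.05. In HT shock against WT shock Gabrb2 stayed between -0.56 and -0.49, while Gabrb1 was -0.10 after the correction for transcript length and GC content and between -0.30 and -0.28 under the others.

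The genes whose within-group pattern was most like each subunit gene were taken from the 3 with the highest r over the 23 libraries, as a description. For Gabrb1 they were Akap6 (0.98), Xkr4 (0.97) and Aff4 (0.97). For Gabrb2 they were Faxc, Fam120c and Ncam2, each at 0.98. For Gabra4 they were Scamp1 (0.92), Opa1 (0.90) and Ube3a (0.90), and for Gabra2 Slc4a7 (0.90), Paqr8 (0.89) and Csnk1a1 (0.89). For Gabra3 they were Zbtb44 (0.87), Ikbkg (0.82) and Plppr5 (0.81), for Gabra5 Ppp3cc (0.80) and Ddx24 (0.78), and for Gabrd Retreg2 (0.88), Tex264 (0.88) and Chchd10 (0.87). Values of Gabrb1 and Gabrb2 with their nearest genes stayed at 0.93 or more without the 2 libraries farthest out.

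The rest of the inhibitory pathway was counted in HT shock against WT shock from lists of related genes, in a comparison where 9.28% of all genes were called, 5.33% as lower and 3.95% as higher. Of 12 other GABA-A subunit genes 9 were tested, and 1 was lower and 0 were higher: Gabrq, the theta subunit, at -0.40 ± 0.12 (SE; limma adjusted p = 0.0344). A count of 1 in 9 is close to the share of all genes called and says little about the family. All 9 differences were negative, with a median of -0.14, against 0.004 for all genes tested. The lists of related genes were chosen with earlier results of these data known. Their counts are thus no independent test against the share of all genes.

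Of 25 scaffold and partner genes, which hold or move the receptors, 5 were lower and 0 higher, when 5.33% of all genes were lower and 3.95% higher. Their median log2 difference was -0.04. The 4 with the smallest p were Iqsec3 (-0.16), Plcl1 (-0.27), Mdga2 (-0.29) and Trak2 (-0.24), with limma adjusted p between 0.0162 and 0.0314. Iqsec3 binds gephyrin and Plcl1 binds beta subunits. Of 8 genes of chloride transport, which sets the driving force of the receptor current, 4 were lower and 0 higher: the importer Slc12a2 (NKCC1) at -0.41, and the kinases Wnk3 at -0.40, Wnk1 at -0.16 and Oxsr1 at -0.14, with limma adjusted p between 0.00539 and 0.047. Of 8 genes of GABA synthesis, uptake and breakdown 4 were lower and 0 higher: Abat (GABA transaminase) at -0.23, the astrocytic transporter Slc6a11 at -0.31, Aldh5a1 at -0.25 and the synthetic enzyme Gad2 at -0.20, with limma adjusted p between 0.0037 and 0.038.

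The smaller lists held 1 of 5 GABA-B receptor genes lower (the auxiliary subunit Kctd12, -0.26, limma adjusted p = 0.0364) and 2 of 4 glycine receptor genes lower (Glra1 at -1.04 and Glra3 at -0.39, adjusted p of 0.0489 and 0.0342), when 5.33% of all genes were called as lower. With 5 and 4 genes these counts are too small to set against that share. Of 5 neurosteroid genes, whose products act on delta-containing receptors, 0 passed, with Akr1c14 at -0.40 (limma adjusted p = 0.146) and Cyp11a1 at 0.28 (0.356) nearest. None of the counted genes in these 7 lists was higher. In the other 4 comparisons 0 genes of these lists passed.

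Markers of cell types and regions were counted in the same comparison, against the 9.28% of all genes called in it (5.33% lower, 3.95% higher). Of 15 striatal projection neuron markers in HT shock against WT shock 12 were lower and 0 higher, with a median log2 difference of -0.42, among them Rasd2, Adcy5, Gng7 and Scn4b. Their summed level was 36323 to 52631 normalized counts in HT shock, against 58276 to 59667 in WT shock, with no overlap. The lower values were not limited to this comparison. In HT control against WT control 0 of the 15 were called, but all 15 differences were negative, with a median of -0.25. At an unadjusted limma p under 0.05 were 12 of them, and 1895 of all 17118 genes. HT shock against HT control also had 15 negative, 0 called and a median of -0.25, with 12 under that limit, and 2352 of all genes. Of 10 oligodendrocyte markers 6 were lower in HT shock against WT shock, led by Mobp and Mbp, with sums of 187815 to 235165 in HT shock against 226724 to 285370 in WT shock. Thalamic markers gave 3 of 10 lower (Slc17a6, Tcf7l2 and Rora; 14886 to 18068 in HT shock against 17779 to 18990 in WT shock) and astrocyte markers 3 of 10 lower (Slc4a4, Slc1a2 and Acsbg1; 84408 to 99797 in HT shock against 101726 to 107398 in WT shock).

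Cortical markers moved the other way in part, with 3 of 10 higher (Slc17a7, Neurod2 and Fezf2) and 2 lower, and sums of 50390 to 59022 in HT shock against 45445 to 51681 in WT shock. Interneuron markers gave 3 of 14 higher (Npy, Sst and Cck) and 1 lower (Kcnc1), hippocampal markers 2 of 10 higher (Neurod6 and Cpne7) and 1 lower (Prox1), and granule cell markers 1 of 10 lower (Fat2). A count of 1 in 10 is close to the share of all genes called. Pan-neuronal markers gave 1 of 8 higher (Stmn2) and 1 lower (Map2), with sums of 221654 to 237572 in HT shock against 217808 to 234619 in WT shock. Microglial, endothelial, choroid plexus and blood markers gave 0 called, with 0, 4, 0 and 0 at an unadjusted p under 0.05. No marker in these lists was at 0 in any library. The part of these marker shifts in the values of Gabrb1 and Gabrb2 was not tested.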

How the data were processed

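Brain RNA of 23 mouse libraries was prepared with a stranded mRNA kit, per the labels' protocols. The authors deposited 1 table holding, for each gene and library, a normalized signal (counts scaled between libraries, with decimals), and raw counts were not used here. The tools Salmon 1.1.0, R 3.6.2 and DESeq2 1.26.0 and the build GRCm38 appear in the submitters' processing notes, with no roles or order. Depth is unknown, so no counting error was computed, and the scaling makes values relative to all other RNA of a library. Groups came from the titles. Of 24 columns 1 matched no labelled sample and was not used. In WT shock the titles and the bracketed library names number the replicates differently. Ensembl IDs gave a symbol for 18563 of 18578 genes. Members and lists were chosen with earlier results of these data known.

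Values were taken as log2(normalized count + 1), a scale that understates changes of low genes, for the 17118 genes whose mean reached 10. The design had named a count test for the case of raw counts, and limma (3.58.1, statmod 1.5.0, R 4.3.3; trend and robust moderation, 4 groups in 1 fit) was used, with Benjamini-Hochberg adjustment over all genes tested and a threshold of 0.05. The fit was tried on simulated data with known changes and independent noise. That setting lacks the shared differences between libraries seen here, so it does not show how reliable these calls are. The text names the 7 members, Grin2b, up to 4 called genes of each list in HT shock against WT shock (or the 2 with the smallest p), and the 3 genes most like each member. Some genes that this rule selects are not reported here. Exonic lengths are unions of exons in the GENCODE annotation of GRCm38, and promoter windows are RefSeq's. Alternatives tried were centring on medians, other filters, pseudocounts of 0.5 and 5, fits of 2 groups only, blocks by replicate number (of the title or of the library name), library weights and leaving out each library. Libraries were also adjusted for transcript length and GC content, an alternative added after seeing the data. Replicate numbers do not pair the libraries by the labels. The plots use matplotlib 3.10.9 (Python 3.11.15).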

Additional observations from a re-analysis of the deposited data

Results flagged for a closer look

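In 2 of 28 combinations of a subunit gene and a group 1 library lay far from the rest, about as many as chance gives (1 in 20). Gabra2 had 2214.6 normalized counts in WT control replicate 6, and the other 5 WT control libraries lay between 1667.6 and 1842.9. Gabrd had 2078.9 normalized counts in WT control replicate 4, and the other 5 lay between 2446.2 and 2586.8. The low value of HT control replicate 6 for Gabrb2 did not meet this limit, since the group's other libraries are spread widely too.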

How the results depend on the processing

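In HT shock against WT shock 2 subunit genes were called. The count was 1 with no filter on low values and 1, Gabra3, after the correction for transcript length and GC content, and between 0 and 2 when a library was left out. The replicate number as a block gave 0, with Gabrb1 at -0.28 (limma adjusted p = 0.0784) and Gabrb2 at -0.51 (0.109), and the library-name numbers as a block gave 0 as well, at -0.29 (0.055) and -0.56 (0.0656). Libraries of different groups with the same number correlated at a median of 0.016 (over 0.1 in 5 of 33 pairs), and those with different numbers at 0.004 (9 of 165), so the numbers were not taken to pair them. In HT shock against HT control 0 were called, against 3 with library weights and between 0 and 3 when a library was left out, 3 only without HT control replicate 6. In the other 3 comparisons the count stayed 0 under every alternative. The number of all genes called in HT shock against WT shock, 1589, ranged from 422 to 2923 when a library was left out and was 2932 with the compared groups alone, 450 and 976 with the 2 blocks, 3775 with library weights and 901 after the correction. Some differences that passed nowhere turned in sign. For the interaction, Gabra4 (-0.01) was 0.005 with the replicate block, 0.021 after the correction and between -0.066 and 0.022 when a library was left out, and Gabrd (-0.03) was 0.017 with library weights and between -0.064 and 0.014. After the correction Gabra2 was 0.006 in HT control against WT control and 0.03 in HT shock against HT control, Gabrd -0.02 in HT shock against HT control, and Gabrb1 0.025 in WT shock against WT control. With a library left out, Gabrd lay between -0.013 and 0.059 in HT shock against HT control, and in WT shock against WT control Gabra2 between -0.027 and 0.07 and Gabrb1 between -0.059 and 0.013. The correlations of Gabra3 with Gabrb2 (0.64) and Gabrb1 (0.59) were -0.08 and -0.04 after the correction. The causes were not tested. Unknown depth limits what the spread between libraries can be compared with.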
